A study of Mus musculus with 6 samples.

Results

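The 35 genes described here encode proteins of homologous recombination, of the Fanconi anaemia pathway and of the DNA damage checkpoints. They are a list of gene names drawn up with earlier results of these data known, and each name matched 1 of the 53465 rows of the expression table. The RNA came from a leukaemia line of the mouse, Nras(G12D)/MLL-AF9, which carries a mutant Nras and a fusion of the MLL and AF9 genes and was grown with serum, SCF, IL-3 and IL-6. The OMP group had 3 libraries of cells kept for 6 days in 100 µM 4'-O-methylpyridoxine (OMP), a vitamin B6 analog known to inhibit pyridoxal kinase. The Vehicle group had 3 libraries of the same line given PBS for 6 days. Both groups carry the same oncogenes, only 1 line was studied, and the labels do not say whether libraries came from separate cultures, so the spread behind each p-value is that among these libraries and may be technical only.

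Homologous recombination repairs broken DNA by copying the intact sister chromatid, which is present only after replication. The ends are trimmed to single strands, and these pair with the matching sequence with the help of BRCA2 and its partners. The Fanconi pathway detects crosslinks that block replication forks and marks them with ubiquitin on FANCD2 and FANCI. The kinases ATM and ATR signal damage to CHK2 and CHK1, which hold the cell cycle. Many of these genes are transcribed mainly in cycling cells.

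Values are RPKM, the reads of a gene scaled by its length and by the reads of the library. Totals recovered from the RPKM steps were 3494986 to 3720117 reads in OMP libraries and 3737843 to 4247619 reads in Vehicle libraries. Across the genes tested, log2 values correlated at 0.979 to 0.981 within groups and at 0.953 to 0.958 between OMP and Vehicle libraries. Of 12 markers of myeloid leukaemia cells, all detected in every library, 6 fell, 3 rose and 3 did not pass the threshold with OMP. Mpo, Elane, Prtn3, Cebpa, Myb and Csf3r fell, among them the granule enzyme gene Mpo at 1.98, 2.97 and 2.93 RPKM in OMP libraries, against 12.6, 12.7 and 11.6 RPKM in Vehicle libraries. Ptprc, Itgam and Spi1 rose, and Hoxa9, Meis1 and Fcgr3 did not pass. The 12 names matched 13 rows, of which 12 were tested. These 13 rows summed to 1217 to 1267 RPKM with OMP and 2251 to 2321 RPKM with Vehicle. The part of this shift in the members' values was not tested. The 8 erythroid markers summed to 0.160 to 0.786 RPKM in OMP libraries and 0.479 to 0.959 RPKM in Vehicle libraries. The 8 B cell markers summed to 0.3999 to 0.969 RPKM with OMP and 0.168 to 0.858 RPKM with Vehicle, with Pax5 and Ebf1 at 0 in every library. The 8 T and NK cell markers summed to 2.58 to 4.04 RPKM with OMP and 3.10 to 3.34 RPKM with Vehicle, nearly all of it Lck, with Cd3e at 0. The 8 stromal and endothelial markers summed to 57.2 to 59.5 RPKM with OMP and 84.1 to 88.3 RPKM with Vehicle, nearly all of it Pecam1, which leukocytes also express, with Dcn and Pdgfra at 0. Limma, adjusted over the 11020 genes that passed the filter on low values, called 1702 genes higher and 3033 lower with OMP at an adjusted p under 0.05. The split between directions depended on scaling. It was 2366 higher and 2236 lower with median-of-ratios scaling, 2244 and 2321 with quantile normalization, 1221 and 3982 after rescaling to TPM, and 2475 and 2173 with GC content and gene length regressed out.

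Of the 34 members tested, 26 fell and 0 rose, where 27.5% of all genes tested were lower, 15.4% higher and 43% past the threshold in either direction. The remaining 8, Rad51d, Fancb, Fancl, Exo1, Rad50, Nbn, Chek2 and Atm, did not pass the threshold. A log2 fold change of -1 or less with a call was found for 5 members (Rad51c, Rad54l, Rad51ap1, Fanci and Xrcc2), and for 2.21% of all genes tested. The median log2 fold change of the tested members was -0.55, against -0.09 over all genes tested. A log2 fold change here is on the log2(RPKM + 0.5) scale, OMP over Vehicle, and understates the change of low genes. Changes given as n-fold are taken from it and are not ratios of the printed RPKM. For Brca2 the fold is 1.88, where the mean RPKM of Vehicle over OMP is 2.06. The member median lay under that of all genes by 0.42 to 0.49 in the main test and in each of the 17 alternatives. In 28 of the 34 tested members every OMP library was below every Vehicle library, which held for 34.6% of all genes tested, and in 0 members was every OMP library above every Vehicle library (19.9% of all genes tested). Libraries of bulk RNA cannot tell fewer cells in which a gene is active apart from less RNA per cell. Members ran from 1.09 to 75.1 RPKM and from 11 to 1666 reads in a library, so depth limits the lowest of them most.

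**Figure D1:**
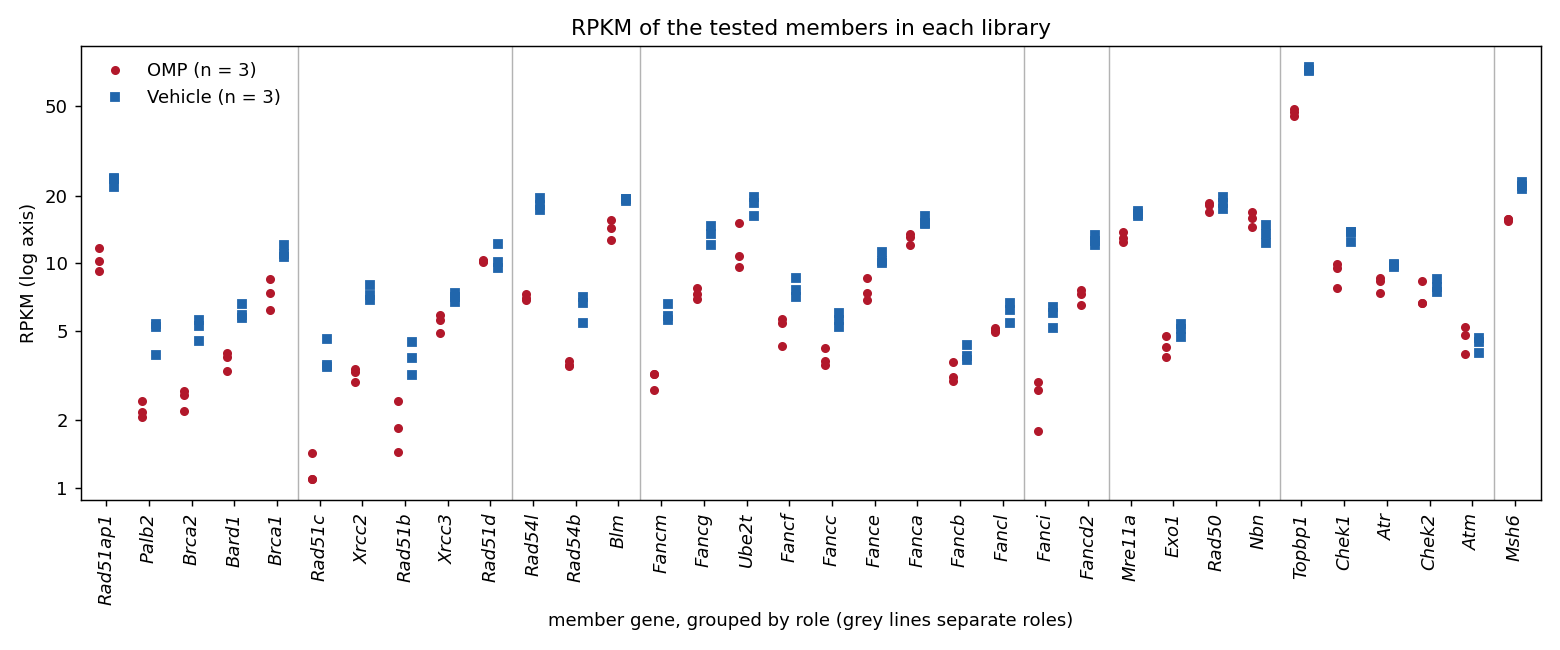
RPKM of the 34 tested members in each library on a log axis, OMP (red circles, left) and Vehicle (blue squares, right), grouped by role between the grey lines. Points of the groups are apart for genes such as Rad54l and Topbp1, and overlap for Rad51d, Rad50, Nbn, Chek2, Exo1 and Atm.

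Geometric means over the tested members were 6.18, 6.27 and 6.11 RPKM in the OMP libraries, against 9.43, 9.63 and 9.46 RPKM in the Vehicle libraries. Over all genes tested they were 12.5, 12.6 and 12.6 RPKM with OMP and 13.3, 13.3 and 13.4 RPKM with Vehicle. The members thus stood at similar levels in the libraries of a group, and all OMP libraries lay below all Vehicle libraries. The span of an annotated protein-coding gene, introns included, overlaps that of 12 of the 35 members, by as little as 34 bp for Msh6. Without a stated strand setting, reads in the shared part of such pairs cannot be told apart.

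The proximal promoters were read from RefSeq on GRCm38.p6, which held 28 of the 35 members, as 250 bases before and 50 after each start. Words of the E2F factors, which switch on genes at the entry to replication, were searched as TTTCGCGC, TTTGGCGC, TTTCCCGC and TTTGCCGC on both strands. At least 1 word stood in the promoters of 7 of these 28 members (25%), against 5.05% of the genes tested that matched by symbol. Exact words alone were counted, so a promoter without a match may still hold a variant. Each promoter with an E2F word held 1, and it overlapped no match of the other words searched. The NF-Y word CCAAT was found for 67.9% of the members and 43.7% of the genes tested, and the CHR word TTTGAA for 7.14% and 14.4%. The windows below run 5′ to 3′ on the strand of the gene, with the E2F word in capitals, and are those whose word begins before the start. Brca2, Rad51c, Bard1, Fancg and Topbp1 fell, while Chek2 did not pass the threshold. Msh6, whose word begins after the start, also fell. A word was found for 6 of the 23 members that fell and have a promoter here, and for 1 of 4 that did not pass. These are too few to compare, and a link between word and change was not tested.
Brca2 (chr5:150522423-150522490, plus strand): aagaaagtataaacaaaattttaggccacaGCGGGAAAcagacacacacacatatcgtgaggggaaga
Rad51c (chr11:87404945-87404989, minus strand): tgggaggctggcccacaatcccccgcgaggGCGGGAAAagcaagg
Bard1 (chr1:71103144-71103211, minus strand): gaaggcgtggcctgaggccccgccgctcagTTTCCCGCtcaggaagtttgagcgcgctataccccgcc
Fancg (chr4:43010316-43010383, minus strand): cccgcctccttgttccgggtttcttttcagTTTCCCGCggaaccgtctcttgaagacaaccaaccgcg
Topbp1 (chr9:103305168-103305235, plus strand): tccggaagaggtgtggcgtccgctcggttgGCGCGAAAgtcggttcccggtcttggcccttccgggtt
Chek2 (chr5:110839801-110839868, plus strand): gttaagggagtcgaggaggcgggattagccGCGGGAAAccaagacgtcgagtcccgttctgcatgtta
A match is a description of these letters and does not show a bound site.

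All 5 genes of the BRCA complex and its partners fell, where 27.5% of all genes tested were lower. Their median log2 fold change was -0.91. Rad51ap1, whose product helps DNA strands to pair, had 9.23, 11.7 and 10.2 RPKM in OMP libraries, against 23.6, 24.0 and 21.8 RPKM in Vehicle libraries. It was 2.18-fold lower (ENSMUSG00000030346, GRCm38 chromosome 6, 126923050 to 126939587, a log2 value of -1.12 with an SE of 0.09, adjusted p by limma = 4.36e-05), and its highest OMP library stood below its lowest Vehicle library. Brca2, a central mediator of recombination, had 2.69, 2.21 and 2.58 RPKM with OMP, against 4.52, 5.61 and 5.27 RPKM with Vehicle, and the groups did not overlap. It was 1.88-fold lower (chromosome 5, 150522630 to 150570329, log2 fold change -0.91, SE 0.14, adjusted p by limma = 0.00121). Palb2, the bridge between BRCA1 and BRCA2, had 2.06, 2.18 and 2.44 RPKM with OMP and 5.21, 5.34 and 3.89 RPKM with Vehicle. Its fall of 0.95 on the log2 scale was of nearly the same size (limma adjusted p = 0.00177). Brca1 and Bard1 encode the partners of a ubiquitin ligase. Brca1 averaged 7.35 ± 1.14 RPKM in OMP libraries and 11.2 ± 0.742 RPKM in Vehicle libraries (SD, n = 3 each), 1.504-fold lower. Bard1 averaged 3.72 ± 0.349 RPKM with OMP and 6.06 ± 0.476 RPKM with Vehicle, 1.56-fold lower.

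The products of Rad51b, Rad51c, Rad51d, Xrcc2 and Xrcc3 form small complexes that assist strand exchange, and these genes did not move evenly. Rad51c, which is shared by these complexes, had 1.09, 1.43 and 1.09 RPKM with OMP, against 3.46, 4.59 and 3.52 RPKM with Vehicle. It stands on chromosome 11 (87376645 to 87404954) and had the lowest log2 fold change of the 34 tested members, -1.35 ± 0.19 SE (limma adjusted p = 0.000693), from 51 OMP reads and 184 Vehicle reads. Xrcc2 had 3.26, 2.95 and 3.39 RPKM with OMP and 7.25, 6.85 and 7.98 RPKM with Vehicle, 2.12-fold lower (limma adjusted p = 0.000159). Rad51b, on 45 OMP reads and 101 Vehicle reads, was 1.80-fold lower (adjusted p by limma = 0.0104, log2 fold change -0.85 ± 0.20 SE). Xrcc3, the partner of Rad51c in the smaller complex, averaged 5.46 ± 0.523 RPKM with OMP and 7.07 ± 0.315 RPKM with Vehicle, and it passed with a limma adjusted p of 0.0270. That call was lost without OMP replicate 3 (0.0793), Vehicle replicate 2 (0.0891) or Vehicle replicate 3 (0.0707), and with median-of-ratios scaling (0.0766) or quantile normalization (0.119). Rad51d, which joins Rad51b, Rad51c and Xrcc2 in the larger complex, had 10.4, 10.1 and 10.3 RPKM with OMP and 10.1, 12.1 and 9.48 RPKM with Vehicle. Its OMP values lay inside the Vehicle range, and its log2 fold change was -0.03 with a 95% interval from -0.26 to 0.19 (limma adjusted p = 0.807). Without Vehicle replicate 2 the sign was positive, at 0.065.

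The 3 genes of enzymes that act on joined DNA molecules all fell, where 27.5% of all genes tested were lower. Rad54l, a motor protein of strand exchange, had 7.28, 6.89 and 7.02 RPKM in OMP libraries, against 17.3, 18.2 and 19.5 RPKM in Vehicle libraries. It was 2.49-fold lower and had the smallest adjusted p of the members (adjusted p by limma = 6.44e-06, log2 fold change -1.31 ± 0.08 SE, chromosome 4, 116094264 to 116123690). Its relative Rad54b had 3.49, 3.53 and 3.65 RPKM with OMP and 7.08, 6.64 and 5.41 RPKM with Vehicle, 1.69-fold lower. Blm, the RecQ helicase that helps to take apart crossed strands, averaged 14.2 ± 1.47 RPKM with OMP and 19.2 ± 0.213 RPKM with Vehicle, 1.35-fold lower.

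**Figure D2:**
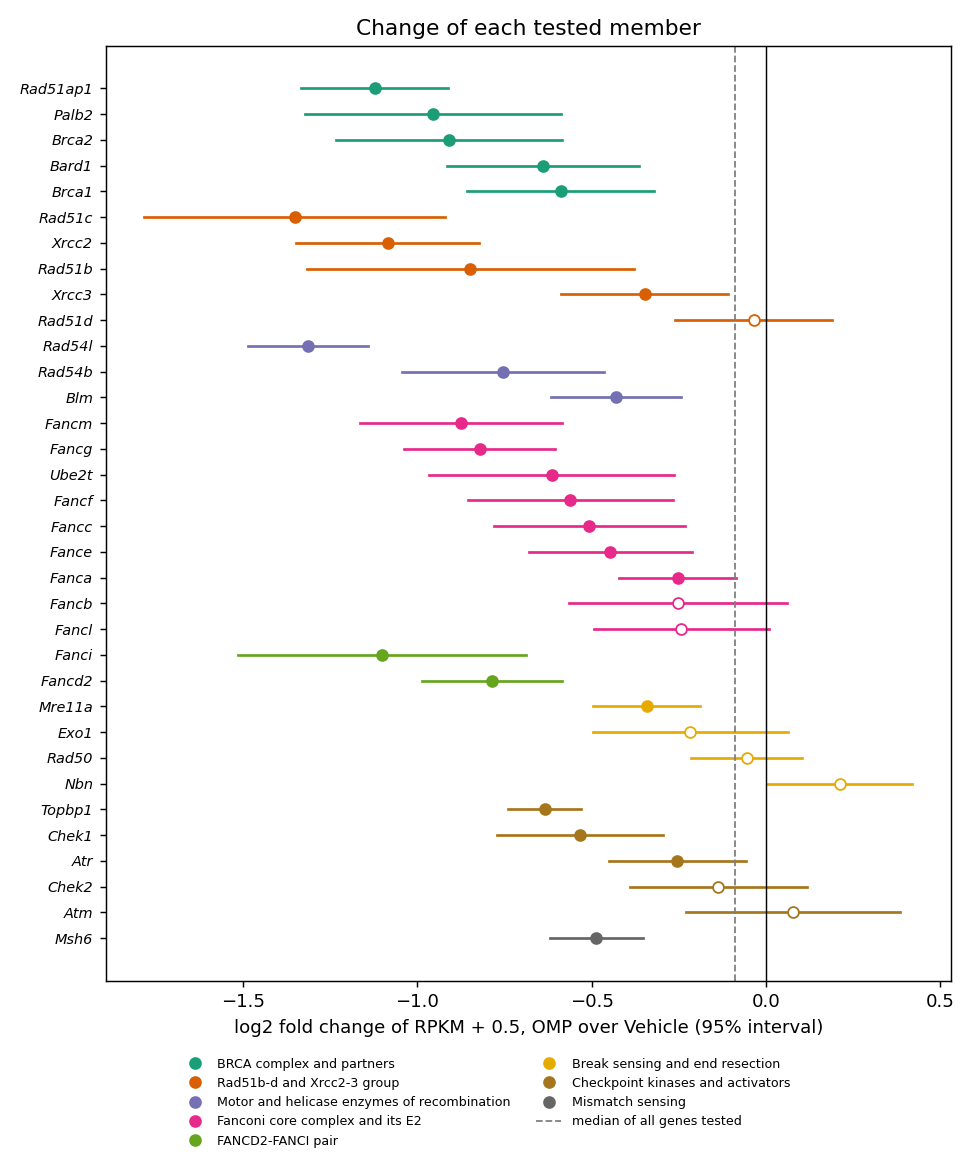
Log2 fold change of each tested member (points) with its 95% interval (lines), coloured by role, where filled points passed an adjusted p of 0.05 and open points did not. Values run from -1.35 for Rad51c to 0.21 for Nbn, and the dashed line marks the median of all genes tested, -0.09.

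The Fanconi core complex attaches ubiquitin to FANCD2 and FANCI. Of 9 genes of this complex and its ubiquitin-conjugating enzyme 7 fell, where 27.5% of all genes tested were lower. The other 2 did not pass the threshold. Fancm, a DNA motor that brings the complex to chromatin, had 3.20, 2.72 and 3.22 RPKM with OMP and 5.82, 6.60 and 5.57 RPKM with Vehicle, 1.83-fold lower (limma adjusted p = 0.000829). Fancg had 6.92, 7.32 and 7.76 RPKM with OMP and 14.7, 11.996 and 13.4 RPKM with Vehicle, 1.77-fold lower (limma adjusted p = 0.000258). Ube2t, the ubiquitin-conjugating enzyme of the pathway, had 10.8, 15.1 and 9.63 RPKM with OMP and 18.5, 19.7 and 16.2 RPKM with Vehicle, so OMP replicate 2 lay nearest to the Vehicle range. The falls of Fancf, Fancc and Fance were 1.48-fold, 1.42-fold and 1.36-fold. Fanca, the binding partner of the FANCG protein, averaged 12.8 ± 0.768 RPKM with OMP and 15.4 ± 0.716 RPKM with Vehicle, and lost its call (limma adjusted p = 0.0236) with median-of-ratios scaling (0.0952) and without OMP replicate 1 (0.0674) or Vehicle replicate 3 (0.0838). Fancl, which encodes the ubiquitin ligase itself, had 5.15, 4.96 and 5.03 RPKM with OMP and 5.40, 6.19 and 6.65 RPKM with Vehicle. Its values did not overlap, yet its log2 fold change of -0.24 had a 95% interval from -0.49 to 0.01 (limma adjusted p = 0.107). Fancb, an X-linked core gene, had a log2 fold change of -0.25 with an interval from -0.57 to 0.06 (limma adjusted p = 0.172).

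The genes of both substrates of that complex fell, where 27.5% of all genes tested were lower. Fancd2 had 7.63, 6.54 and 7.27 RPKM in OMP libraries, against 12.5, 12.1 and 13.4 RPKM in Vehicle libraries (adjusted p by limma = 0.000224, log2 fold change -0.79 ± 0.09 SE, chromosome 6, 113531682 to 113597017). Fanci had 2.71, 2.97 and 1.79 RPKM with OMP and 6.39, 5.16 and 5.98 RPKM with Vehicle, 2.15-fold lower (limma adjusted p = 0.00156). OMP replicate 3 was the lowest library for Fanci. The gene overlaps Polg on the other strand, which was also lower (log2 fold change -0.34 ± 0.08 SE), and the share of reads in the overlap was not tested.

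Of 4 genes that sense breaks and trim their ends 1 fell (25%), a share near the 27.5% of all genes tested, and their median log2 fold change was -0.14. MRE11, RAD50 and NBN bind broken ends together, and only the gene of the nuclease passed the threshold. Mre11a had 12.4, 12.9 and 13.7 RPKM with OMP and 16.2, 16.6 and 17.1 RPKM with Vehicle, 1.27-fold lower (limma adjusted p = 0.00384). Rad50 had 16.9, 18.5 and 18.2 RPKM with OMP and 17.5, 19.7 and 18.6 RPKM with Vehicle, and the groups overlapped. Its log2 fold change was -0.06 with a 95% interval from -0.21 to 0.10, and its sign turned positive with median-of-ratios scaling. Nbn had 14.5, 15.9 and 16.9 RPKM with OMP and 12.3, 14.9 and 13.5 RPKM with Vehicle, which gave 0.21 ± 0.09 SE on the log2 scale (adjusted p by limma = 0.0915). Under median-of-ratios scaling Nbn passed as higher, at 0.30 (limma adjusted p = 0.0272). Exo1, a long-range exonuclease, averaged 4.27 ± 0.454 RPKM with OMP and 5.03 ± 0.343 RPKM with Vehicle (limma adjusted p = 0.185).

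Of the 5 checkpoint genes tested 3 fell, where 27.5% of all genes tested were lower. All 3 belong to the ATR branch, and Atm and Chek2 did not pass the threshold. Topbp1, the activator of ATR, was the most abundant member, with 48.5, 45.1 and 46.9 RPKM in OMP libraries, against 71.4, 72.4 and 75.1 RPKM in Vehicle libraries. Its 1.55-fold fall had the smallest SE of the members (adjusted p by limma = 2.28e-05, log2 fold change -0.63 ± 0.05 SE, chromosome 9, 103305215 to 103350428). Chek1, the kinase that ATR switches on, had 7.76, 9.56 and 9.91 RPKM with OMP and 12.4, 13.8 and 13.8 RPKM with Vehicle, 1.45-fold lower (limma adjusted p = 0.00369). Atr itself had 8.58, 7.40 and 8.36 RPKM with OMP and 9.61, 9.77 and 9.88 RPKM with Vehicle. That small gap passed the threshold (log2 fold change -0.25, limma adjusted p = 0.0416). It did not when OMP replicate 2 or 3 or any 1 of the Vehicle libraries was left out (limma adjusted p 0.0650 to 0.114). The call of Atr was also lost with median-of-ratios scaling (limma adjusted p = 0.147) and quantile normalization (0.211). Atm had 5.20, 4.78 and 3.95 RPKM with OMP and 4.63, 3.98 and 4.47 RPKM with Vehicle, a log2 fold change of 0.08 with an interval from -0.23 to 0.38 (limma adjusted p = 0.673). Chek2, the kinase downstream of ATM, had 6.66, 8.29 and 6.61 RPKM with OMP and 8.46, 7.84 and 7.45 RPKM with Vehicle, with a limma adjusted p of 0.357. Calls alone do not show that the ATR and ATM branches differ, and that difference was not tested across these genes.

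Atrip, the partner of ATR, was not tested. It had 2, 1 and 1 reads in OMP libraries and 0, 2 and 0 reads in Vehicle libraries, under a floor of 3 reads in each. Trex1, which shares 1802 bp with Atrip on the same strand, was listed at 0 in every library, and how reads of the shared part were assigned is not given in the sources used here. Msh6, a mismatch sensor, had 15.8, 15.5 and 15.7 RPKM with OMP and 21.4, 22.1 and 23.0 RPKM with Vehicle. It was 1.40-fold lower (adjusted p by limma = 0.000309, log2 fold change -0.49 ± 0.06 SE, chromosome 17, 87975062 to 87990892).

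Ratios between partner genes within a library do not depend on library scaling. Of 10 ratios, chosen after the values were seen, several shifted without overlap between the groups. The ratio of Rad51c to Rad51d was 0.105, 0.141 and 0.106 in OMP libraries, against 0.343, 0.378 and 0.371 in Vehicle libraries. Xrcc2 to Rad51d stood at 0.315, 0.292 and 0.330 with OMP and 0.720, 0.565 and 0.841 with Vehicle, again with no overlap. The ratio of Nbn to Mre11a was 1.16, 1.23 and 1.23 with OMP and 0.756, 0.894 and 0.788 with Vehicle, above 1 in each OMP library and below 1 in each Vehicle library. For these ratios the two-sided exact permutation test over libraries gave p = 0.1, the smallest that 3 libraries against 3 allow, and 0.2 after Benjamini-Hochberg adjustment over the 10. Other pairs kept overlapping ratios. Bard1 to Brca1 was 0.513 ± 0.090 with OMP and 0.542 ± 0.071 with Vehicle (SD, n = 3 each, exact permutation p = 0.5), and Palb2 to Brca2 was 0.899 ± 0.118 and 0.948 ± 0.207 (exact permutation p = 0.9). Chek1 to Chek2 averaged 1.27 ± 0.196 with OMP and 1.69 ± 0.2001 with Vehicle, and Atr to Atm 1.77 ± 0.304 and 2.25 ± 0.191. Both overlapped, each with an exact permutation p of 0.2. No ratio could pass 0.05 with 3 libraries against 3, so these values neither show nor exclude a difference between the kinase branches.

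**Figure D3:**
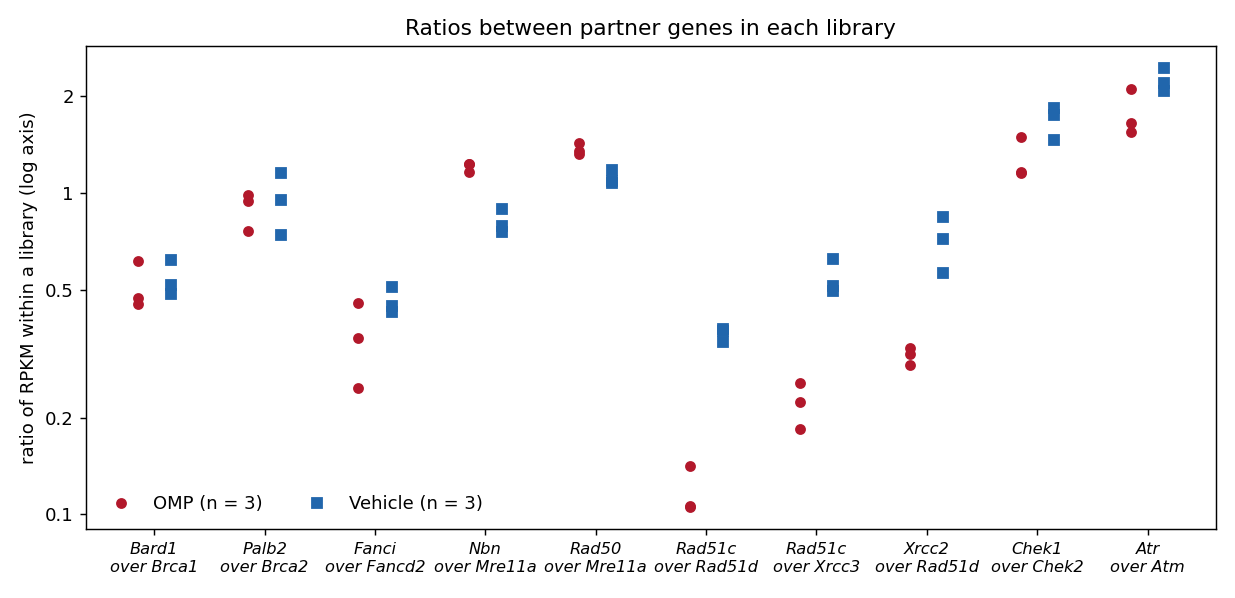
Ratio of RPKM between pairs of members within each library on a log axis, OMP (red circles, left) and Vehicle (blue squares, right), 3 libraries a group. Rad51c over Rad51d lies at 0.105 to 0.141 with OMP and 0.343 to 0.378 with Vehicle, while Bard1 over Brca1 and Palb2 over Brca2 overlap.

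Several of these genes start close to a gene on the other strand. By GENCODE M21, 14 members have a protein-coding gene that starts within 1000 bp on the opposite strand, and 12 of these neighbours were tested. Of the 12 members concerned 9 fell, while 2 of the 12 neighbours fell and 0 rose, where 27.5% of all genes tested were lower. The median log2 fold change was -0.57 for these members and -0.05 for their neighbours, against -0.09 over all genes tested. In 8 pairs the member fell and its neighbour did not pass the threshold. Rad54l starts 150 bp from Pomgnt1, an enzyme gene of protein glycosylation, which had 10.6, 9.92 and 11.2 RPKM with OMP and 11.7, 9.35 and 10.4 RPKM with Vehicle (log2 fold change 0.02 ± 0.10 SE). Brca1 starts 194 bp from Nbr1, an autophagy receptor gene, which had 25.6, 24.6 and 22.6 RPKM with OMP and 25.3, 25.1 and 24.7 RPKM with Vehicle (log2 fold change -0.05 ± 0.06 SE). Palb2 starts 56 bp from Dctn5, a dynactin subunit gene, at -0.05 ± 0.06 SE, and Rad51ap1 starts 375 bp from D6Wsu163e at 0.12 ± 0.08 SE. The reverse was seen once. Hscb, a gene of iron-sulfur cluster assembly that starts 202 bp from Chek2, had 17.8, 9.80 and 10.4 RPKM with OMP and 20.3, 24.3 and 18.7 RPKM with Vehicle, and it fell (adjusted p by limma = 0.0173, log2 fold change -0.76 ± 0.21 SE) where Chek2 did not pass. Fancf and Gas2, which overlap by 253 bp at their starts, both fell. The difference within a pair was not tested, and the pairs were compared after the members' values were known.

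**Figure D4:**
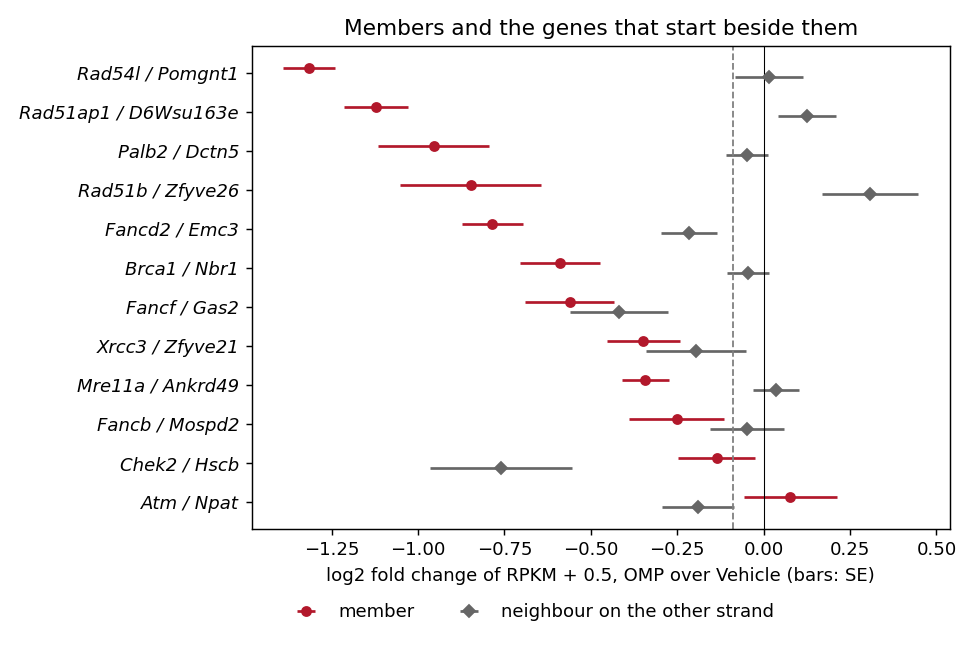
Log2 fold change of 12 members (red circles) and of the protein-coding gene that starts beside each on the other strand (grey diamonds), with SE as bars and the median of all genes tested as a dashed line. Members reach -1.31, while 10 of the 12 neighbours did not pass the threshold.

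The stretch before Rad54l and before Rad51ap1 is shown because these are the strongest falls beside a neighbour that did not pass. Each run is the 250 bases before the RefSeq start on the minus strand, 5′ to 3′ in the direction of the member, with NF-Y words (CCAAT, or ATTGG where the word lies on the other strand) in capitals. Neither holds 1 of the E2F words searched, and both hold an NF-Y word within this stretch. Only exact words were searched, so variants of an E2F word would be missed. The NF-Y word was found in the promoters of 43.7% of the genes tested.
Rad54l (chr4:116123691-116123940): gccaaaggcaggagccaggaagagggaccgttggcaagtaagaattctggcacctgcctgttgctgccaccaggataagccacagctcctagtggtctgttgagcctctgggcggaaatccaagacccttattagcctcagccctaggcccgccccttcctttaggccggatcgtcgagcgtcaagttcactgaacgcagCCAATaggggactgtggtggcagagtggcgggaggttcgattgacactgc
Rad51ap1 (chr6:126939588-126939837): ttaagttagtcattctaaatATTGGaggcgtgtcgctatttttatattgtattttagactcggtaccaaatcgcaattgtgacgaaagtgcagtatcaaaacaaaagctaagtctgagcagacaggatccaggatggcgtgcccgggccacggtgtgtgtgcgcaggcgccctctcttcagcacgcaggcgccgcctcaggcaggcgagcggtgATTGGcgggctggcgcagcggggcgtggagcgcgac

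Other genes of the same pathways moved less uniformly. The members and these lists were chosen with earlier results known, and whether the contrast follows from that choice was not tested. Over all genes tested 27.5% were lower and 15.4% higher, and the counts below come without a set test. Of 36 tested genes from the rest of homologous recombination 18 fell and 2 rose, with a median log2 fold change of -0.30. Rpa2, a subunit of the single-strand binding protein, was 2.14-fold lower. Of 17 other crosslink repair genes 7 fell and 1 rose, with a median of -0.24. Usp1, which removes the ubiquitin from FANCD2, averaged 51.1 ± 0.568 RPKM with OMP and 72.1 ± 2.39 RPKM with Vehicle, and Rfwd3, a ubiquitin ligase of this pathway, was 1.40-fold lower. Of 26 other checkpoint genes 15 fell and 1 rose, with a median of -0.31. Timeless and Tipin, which protect stalled forks together, were 2.21-fold and 1.45-fold lower. Of 6 other mismatch repair genes 2 fell (33.3%, near the share of all genes) and 0 rose, with Pms1 1.48-fold lower.

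Repair routes that do not copy a sister chromatid are given for comparison. Genes that fell made up 38.9% of end joining, 35.3% of base excision repair and 19.0% of nucleotide excision repair. Over all genes tested 27.5% were lower and 15.4% higher, so these counts are not read as results about a route. Of 18 end joining genes 7 fell and 1 rose, with a median of -0.27, among them Tdp2 (1.46-fold lower). Of 17 base excision repair genes 6 fell and 1 rose, with a median of -0.34, and Xrcc1, a scaffold of that route, was 1.73-fold lower beside Lig1, 1.48-fold lower. Of 21 nucleotide excision repair genes 4 fell and 5 rose, with a median of 0.01. Ddb1, a damage-binding adaptor, averaged 178.8 ± 7.15 RPKM with OMP and 142.0 ± 2.07 RPKM with Vehicle, 1.26-fold higher. Among the lists, replication genes had the lowest median. Of 28 licensing and fork genes 27 fell and 0 rose, with a median of -0.66, against -0.55 for the members, and Cdt1 and Mcm3 were 2.14-fold and 1.75-fold lower. The share of cycling cells was not measured, so its part in the members' fall was not tested.

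**Figure D5:**
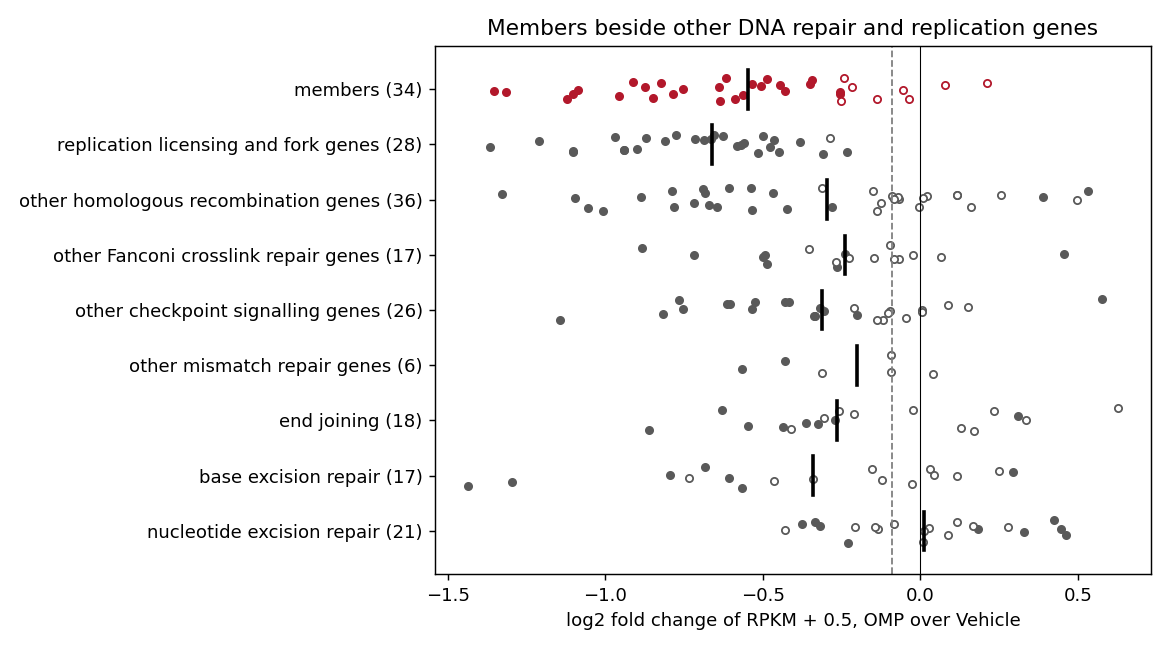
Log2 fold change of the tested members (red) and of the tested genes of 8 other lists (grey), with the number tested beside each name, filled where the adjusted p was under 0.05. Black bars are medians, from -0.66 for replication licensing and fork genes to 0.01 for nucleotide excision repair, with the members at -0.55 and all genes tested at -0.09 (dashed).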

How the data were processed

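Poly(A)-selected RNA was made into TruSeq libraries, per the labels' protocols. Tools named in the submitters' processing notes are STAR 2.5.3a, featureCounts 1.6.3, Trimmomatic 0.36 and FastQC 0.11.5, and the build is mm10 (GRCm38). For the annotation release and strand setting no value is stated in those notes or the labels. Reads in the part that overlapping genes share can therefore not be separated. The authors deposited RPKM, 1 column per library. Whole reads were recovered from the RPKM steps for 19970 of 19970 genes above 0, within a relative tolerance of 1e-06. An annotated transcript length gave whole reads for 94.6% of these. For the rest a fitting length was searched for, so their recovery is not a check of the method. Intervals and floors cover counting error or library spread only.

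Genes reaching 1 RPKM in 3 or more of the 6 libraries were tested on log2(RPKM + 0.5) by limma 3.58.1 in R 4.3.3, two-sided, with Benjamini-Hochberg adjustment over 11020 genes. The script was tested on simulated data. The members and gene lists were chosen with earlier results of these data known. All members are reported, and of each other list the 2 tested genes with the smallest p, apart from some that are not reported here. Of the listed genes Hrob matched no row. Positions are from GENCODE M21 and promoters from RefSeq, both on GRCm38. Alternatives were other pseudocounts, filters and scalings, a robust prior, limma-voom on recovered reads, a replicate block and leaving out each library. Regressing out GC content and gene length was added after seeing the data. Libraries of a group differed by more than sampling noise (chi-square per degree of freedom 1.18 to 1.57), and each counts as 1 replicate. Plots were made in matplotlib 3.10.9.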

Additional observations from a re-analysis of the deposited data

How the results depend on the processing

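Of the 26 members that fell, 23 kept the call in each alternative that tested them. Over the 17 alternatives 22 to 27 members fell, and 23 to 25 when each library was left out in turn. The 22 came with the filter at 5 RPKM, under which only 27 members were tested. No member passed as higher except under median-of-ratios scaling, quantile normalization and regressing out GC content and gene length (chosen after seeing the data), which each gave 1, Nbn. Atr lost its call in 10 alternatives, Xrcc3 in 8 and Fanca in 5, and Fancl gained one after rescaling to TPM. Signs turned only for members that did not pass. Rad50 was 0.032 with median-of-ratios scaling, 0.043 with quantile normalization and 0.071 with GC and length regressed out. Rad51d was 0.051, 0.068 and 0.053 under the same settings and ran from -0.105 to 0.065 when each library was left out, turning without Vehicle replicate 2, and Atm ran from -0.00090 without OMP replicate 1 to 0.178. The median of all genes was -0.09 as reported, within 0.01 of 0 in those 3 settings and -0.17 with TPM, and the cause of these changes was not tested. Deviations from the group means correlated at -0.0024, 0.015 and 0.0069 between OMP and Vehicle libraries of the same replicate number. By these correlations 0 of the 6 libraries came closest to its own number. Chi-square per degree of freedom within groups was 1.18 to 1.57, so much of each deviation is counting noise. Whether libraries of the same number share a culture or batch was not tested. With the replicate block 24 members fell, 0 rose and 4445 genes were called in all. Depth limits Rad51b and Rad51c, with 45 and 51 OMP reads, and Atrip, which could not be tested.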

Other observations

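A few repair genes outside the members were chosen after their values were seen, of which Trp53bp1, Ercc1 and Mcm9 rose and Neil3 fell. Trp53bp1, whose product protects broken ends from trimming, had 10.3, 10.8 and 10.9 RPKM in OMP libraries, against 6.76, 6.88 and 7.29 RPKM in Vehicle libraries, 1.49-fold higher (limma adjusted p = 0.000638). Ercc1, a subunit of the nuclease that unhooks crosslinks, had 14.2, 15.2 and 13.5 RPKM with OMP and 10.9, 9.95 and 9.93 RPKM with Vehicle, 1.37-fold higher. Neil3, a glycosylase that can also release crosslinks, had 8.001, 5.50 and 7.40 RPKM with OMP and 17.3, 20.2 and 21.1 RPKM with Vehicle, 2.70-fold lower. Mcm9, which works with MCM8 in recombination, was 1.45-fold higher.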
